A study of Mus musculus with 2 samples.

Results

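The genes described here are the heat shock proteins and chaperones of the mouse, taken by gene symbol: the HSP70, HSP110, HSP90, HSP60 and HSP10 families, the small heat shock proteins, the J-domain proteins of types A, B and C, and the subunits of the chaperonin CCT. The rule found 79 genes among 55536 annotated genes. They comprise 11 HSP70, 3 HSP110 and 3 HSP90 genes, HSP60 (Hspd1) and HSP10 (Hspe1), 9 CCT genes, 8 small heat shock genes, and 4 type A, 13 type B and 26 type C J-domain genes. They were measured by total RNA-seq of left cerebral cortex in 2 female mice aged 36 days, with 1 library per animal. The strain B6CASTF1/J is an F1 hybrid whose parents are C57BL/6J and CAST/EiJ mice, so each animal carries 1 allele of every autosomal gene from each strain. The labels name no treatment, and both libraries belong to 1 group. Libraries were made from 300 ng of RNA, reduced in ribosomal RNA, with ERCC spike-ins. With 1 group of 2 mice there is no contrast to test, so levels, ratios between genes and differences between the mice are given as values.

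Chaperones bind unfolded protein chains and help them to fold, to be transported or to be degraded. HSP70 proteins cycle on and off their clients with the help of J-domain proteins, which deliver clients and stimulate ATP hydrolysis, and of HSP110 proteins, which exchange the nucleotide. HSP90 acts on later folding states, and CCT encloses actin and tubulin chains in a ring chamber. Several families hold a constitutive gene, transcribed in unstressed cells, and an inducible partner that the heat shock factor HSF1 drives after heat or proteotoxic stress. The endoplasmic reticulum (ER) has its own set, which the unfolded protein response induces. In neurons, chaperones also serve synaptic vesicles: Dnajc5 (cysteine string protein) on the vesicle and Dnajc6 (auxilin) in the uncoating of clathrin.

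The ends of the coding sequences mark the ER forms among the main HSP70 and HSP90 proteins. The last 30 coding bases, read from GENCODE M21 transcripts on mm10 and written 5′ to 3′ on the coding strand, end in 12 bases, in capitals, that encode the last 4 residues. These are EEVD in the 5 cytosolic proteins, the tail that cochaperones with tetratricopeptide repeats bind. In the 2 ER proteins they are KDEL, the signal that retains a protein there. For Hspa8 the end was read from transcript Hspa8-201.
Hspa8: tcttcaggccccaccattGAAGAGGTGGAT
Hspa1a: ggctcaggacccaccatcGAGGAGGTGGAT
Hspa1b: ggctcaggacccaccatcGAGGAGGTGGAT
Hsp90ab1: gaggatgcctcgcgcatgGAAGAGGTGGAT
Hsp90aa1: gacgacacatcacgcatgGAAGAAGTAGAC
Hspa5: gaagaggatacatcagaaAAAGATGAGTTG
Hsp90b1: gaaaaggaatctacagagAAGGATGAATTG
The coding sequences of Hspa1a (1923 bases) and Hspa1b (1926 bases) were identical over 99.4% of their alignment, with 8 mismatched and 3 gapped positions, so a read often fits both. Hspa8 and Hspa1a were 73.9% identical, and Hsp90ab1 and Hsp90aa1 75.3%.

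Upstream sequence is shown because heat shock and ER stress elements are the known sites through which inducible members are switched on. RefSeq promoter windows (GRCm38.p6) were found for 65 of the 79 members, and the 250 bases before each start were searched on both strands. Hspa8, Hsp90ab1, Hsp90aa1, Dnajc5, Hspa9, Cct4, Dnajc18, Dnajc11, Dnajc30, Hspa13, Dnajc2, Dnajc12, Hspb2 and Dnajc22 had no window. A pair of inverted heat shock units, GAANNTTC or TTCNNGAA, was present in 12.8% of all 32851 windows. Counted per gene, as the members are, it was present in 13.6% of 16522 protein-coding genes. It was present in 16 of 65 members (24.6%), in 8 of 9 heat-inducible members with a window, and in 1 of 6 constitutive cytosolic ones (Dnajb6). The ninth heat-inducible member, Dnajb1, held no match in this window. Hspa1a has 1 such pair, in capitals, that begins 104 bases before the start (chr17:34972157-34972406, minus strand). The matching window of Hspa1b differed from it at 3 of 250 positions.
Hspa1a: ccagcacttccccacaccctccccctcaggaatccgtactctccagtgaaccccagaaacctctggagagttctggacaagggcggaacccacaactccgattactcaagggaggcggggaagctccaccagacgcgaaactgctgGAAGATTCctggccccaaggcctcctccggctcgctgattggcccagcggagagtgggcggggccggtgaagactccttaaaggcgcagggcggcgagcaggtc
The 3-unit form, GAANNTTCNNGAA or TTCNNGAANNTTC, was present in 0.466% of all windows, in 0.448% of protein-coding genes and in 3 members: Dnajb6, Hspd1 and Hspe1. Hspd1 and Hspe1 lie head to head on chromosome 1 and overlap, with annotated starts 111 bases apart on opposite strands. The match of Hspe1 (chr1:55088053-55088082, plus strand) lies before the Hspe1 start and inside an annotated Hspd1 exon. Whether the Hspd1 match is this same site was not checked. The strand setting of the counting is not known, so reads from the overlap may be counted for either gene. Overlapping pairs begin 89, 84 and 79 bases before the Hspe1 start and merge into 1 run of capitals.
Hspe1: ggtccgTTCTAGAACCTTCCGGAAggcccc
The ER stress element, CCAAT and CCACG separated by 9 bases, was present in 0.113% of all windows and in 0.157% of protein-coding genes. It was present in 3 members, all of the ER-stress-inducible list: Hspa5, Hsp90b1 and Dnajc3. The capitals mark it in Hspa5 (chr2:34772020-34772049, plus strand, inside the annotated first exon), in Hsp90b1 (chr10:86705510-86705694, minus strand, 2 matches, the second in reverse orientation) and in Dnajc3 (chr14:118937682-118937931, plus strand).
Hspa5: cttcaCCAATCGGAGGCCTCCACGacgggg
Hsp90b1: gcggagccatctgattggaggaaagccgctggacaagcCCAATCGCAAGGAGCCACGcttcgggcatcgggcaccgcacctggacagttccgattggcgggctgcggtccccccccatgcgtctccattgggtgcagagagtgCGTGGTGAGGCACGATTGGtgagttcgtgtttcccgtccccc
Dnajc3: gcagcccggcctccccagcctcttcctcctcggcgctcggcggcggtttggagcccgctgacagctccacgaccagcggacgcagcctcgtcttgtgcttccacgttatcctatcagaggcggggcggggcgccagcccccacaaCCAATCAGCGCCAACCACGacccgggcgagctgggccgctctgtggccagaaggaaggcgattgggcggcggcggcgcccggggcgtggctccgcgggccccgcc
A match describes these letters and does not show that a factor binds there.

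Chaperone transcripts were expressed broadly in cortex. Levels are TPM, a unit that corrects for transcript length and library size, and a gene was counted as expressed at a TPM of at least 1 in both mice. By that rule 69 of 79 members (87.3%) were expressed, against 57.9% of 22015 nuclear protein-coding genes. The median level of the expressed members was 28.6 TPM, against 15.3 TPM for the 12754 expressed protein-coding genes. Together the members summed to 5249 TPM in replicate 1 and 4607 TPM in replicate 2, equal to 1.12% and 1.10% of the TPM of nuclear protein-coding genes. The total was concentrated in few genes. Hspa8, Hsp90ab1 and Hsp90aa1 made up 42.2% ± 0.304 (SD, n = 2) of it, and Hspa8 alone 19.9% ± 0.288 (SD, n = 2). Among expressed members, 9 had a mean of at least 100 TPM, 16 lay from 50 to under 100, 30 from 10 to under 50, and 14 below 10. In bulk tissue, fewer cells of a type and less RNA per cell cannot be told apart.

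**Figure D1:**
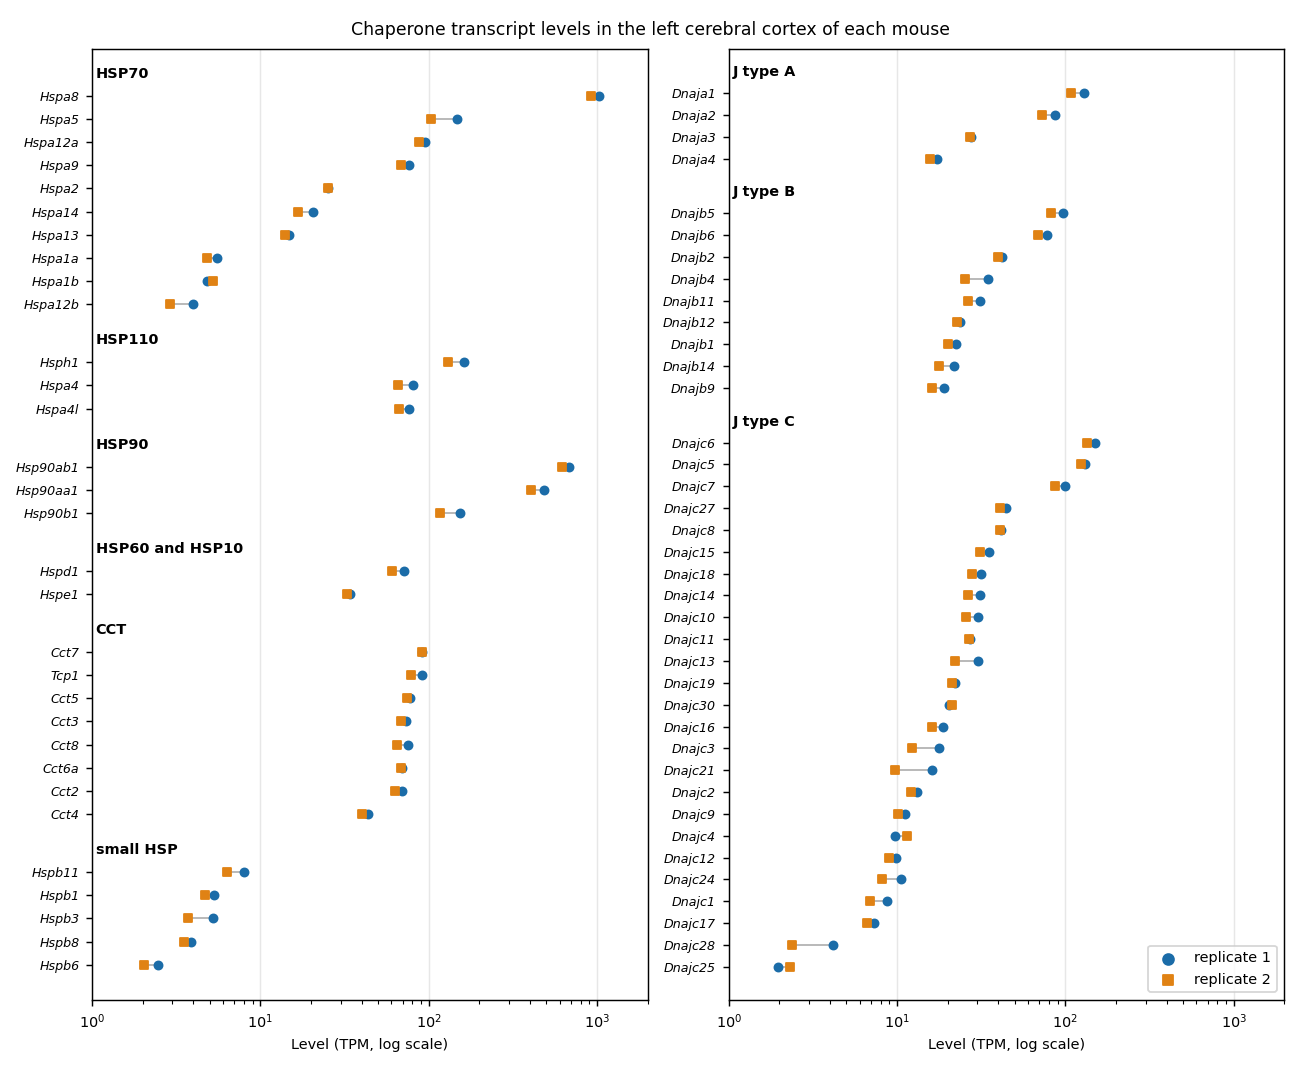
Level of each of the 69 expressed members in each mouse, in TPM on a log axis, by family; circles are replicate 1, squares replicate 2, and grey lines join the mice. Hspa8 reaches 1035 TPM in replicate 1, CCT subunits have means from 41.9 to 91.4 TPM, and small heat shock genes all lie below 10 TPM.

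Within HSP70, the constitutive cytosolic Hspa8 (HSC70), which also uncoats clathrin vesicles, measured 1035 TPM in replicate 1 and 927.5 TPM in replicate 2, rank 11 among protein-coding genes. Hspa5 (BiP), the HSP70 of the ER, measured 148.5 and 104 TPM, and Hspa9 (mortalin), the mitochondrial form, 75.99 and 68.2 TPM. The cytosolic gene lay far above both organelle genes in each mouse, and the ratio of Hspa5 to Hspa8 was 0.128 ± 0.0221 (SD, n = 2). Hspa12a, a divergent family member, measured 95.48 and 88.05 TPM, while its relative Hspa12b measured 3.98 and 2.9 TPM. Hspa2, best known from testis, was expressed at 25.19 and 25.33 TPM. The 2 stress-inducible genes were low: Hspa1a measured 5.5 and 4.84 TPM and Hspa1b 4.8 and 5.25 TPM. Their order differed between the mice. The testis gene Hspa1l, whose start lies 547 bases from that of Hspa1a on chromosome 17, stayed at 0.12 and 0.13 TPM.

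Among HSP110 genes, the heat-inducible Hsph1 (HSP105) measured 162.6 and 130.5 TPM, above Hspa4 at 80.34 and 65.92 TPM and Hspa4l at 76.27 and 66.58 TPM. The values of Hspa4 and Hspa4l overlapped between the mice, and Hsph1 was above both in each mouse. Of the HSP90 genes, Hsp90ab1 measured 679.1 and 619 TPM and Hsp90aa1 487.6 and 406 TPM. Hsp90b1 (GRP94), the ER form, measured 154.2 and 117.5 TPM. The 2 cytosolic genes lay above the ER gene in each mouse.

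The J-domain proteins were the largest group, with 38 of 43 expressed and a sum of 1367 ± 124 TPM (SD, n = 2). Neuronal vesicle cochaperones were near the top: Dnajc6 measured 150.7 and 133.8 TPM, and Dnajc5 130.4 and 123.7 TPM. Dnaja1, a heat-inducible cytosolic partner of HSP70, measured 129.4 and 108.4 TPM, and Dnajc7, which links HSP70 and HSP90, 100.1 and 87.29 TPM. Dnajb5 at 96.1 and 82.09 TPM and Dnajb6, a suppressor of aggregation, at 77.24 and 68.33 TPM led type B. Dnajb2, known for its abundance in neurons, was lower at 42.11 and 39.58 TPM. At the low end of the expressed J-domain genes, Dnajc28 measured 4.16 and 2.36 TPM and Dnajc25 1.97 and 2.32 TPM.

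The 8 somatic CCT subunits, which assemble in equal numbers into each ring, had mean levels from 41.9 TPM for Cct4 to 91.4 TPM for Cct7. Tcp1 (CCT1) measured 91.59 and 78.43 TPM and Cct5 77.85 and 74.81 TPM. Cct3, Cct8, Cct6a and Cct2 had means of 71.3, 70.3, 69.3 and 66.2 TPM, and the values of neighbours in this order overlapped between the mice. Cct4 was below every other somatic subunit in both mice. In a second quantification of the same reads, described below, the means ran from 64.1 TPM for Cct4 to 158 TPM for Tcp1. Cct6b, the testis paralog of Cct6a, was at 0.03 and 0.14 TPM. Prefoldin, which hands actin and tubulin chains to CCT, was expressed in full (6 of 6 genes), with means from 13.2 TPM for Pfdn4 to 176 TPM for Pfdn5. In mitochondria, Hspd1 (HSP60) measured 71.2 and 60.76 TPM, and Hspe1 (HSP10), its lid, 33.98 and 32.95 TPM.

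Small heat shock proteins, which hold unfolded chains in oligomers without ATP, had the lowest median of the families, 2.98 ± 0.279 TPM (SD, n = 2). The 5 expressed genes were Hspb11 (IFT25, a ciliary transport protein) at 8.06 and 6.32 TPM, Hspb1 (HSP25) at 5.32 and 4.72 TPM, and Hspb3, Hspb8 and Hspb6 at means of 4.48, 3.71 and 2.25 TPM. Hspb2 reached 0.96 TPM in each mouse and Hspb7 0.18 and 0.19 TPM. The family member outside the symbol rule, Cryab (αB-crystallin), which is abundant in glia, measured 89.6 and 73.89 TPM. Cryab was named after its value was seen. The 7 members of the list of testis genes (Hspa1l, Cct6b, Hspb9, Dnajb3, Dnajb7, Dnajb8 and Dnajb13) were all below the expression threshold; Hspa2 is not on that list. Dnajb8 and Hspb9 had 0 counts in both libraries, which allows up to 3 counts in each. The tenth gene below it, beside Hspb2 and Hspb7, was Dnajc22, at 0.04 and 0.11 TPM.

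Constitutive and inducible partners did not follow 1 order. Partners were paired by family, and each statement covers the chosen pairs only. The constitutive gene lay far above the inducible one in HSP70 and less so in type B J-domain genes and HSP90. It lay below the inducible one in HSP110 and type A J-domain genes. The TPM of Hspa8 was 190 ± 2.39 times that of Hspa1a and 196 ± 27.6 times that of Hspa1b (SD, n = 2). In expected counts, with no length correction, these ratios were 111 and 122. Against the sum of Hspa1a and Hspa1b, which does not depend on how reads are divided between them, the ratio was 96.2 ± 6.08 (SD, n = 2). The ratio was 3.43 ± 0.035 for Dnajb6 over Dnajb1, the inducible J-domain partner of HSP70, which itself measured 22.34 and 20.05 TPM. That ratio was 1.87 in expected counts. The names constitutive and inducible come from the lists: in the searched windows Dnajb6 held the 3-unit heat shock form and Dnajb1 held no match. The TPM ratio was 1.46 ± 0.0929 for Hsp90ab1 over Hsp90aa1. The inducible member was higher in the other two pairs, with a ratio of 0.5 ± 0.00771 for Hspa4 over Hsph1 and 0.67 ± 0.000784 for Dnaja2 over Dnaja1 (SD, n = 2). Dnaja2, the constitutive partner, measured 86.65 and 72.67 TPM.

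**Figure D2:**
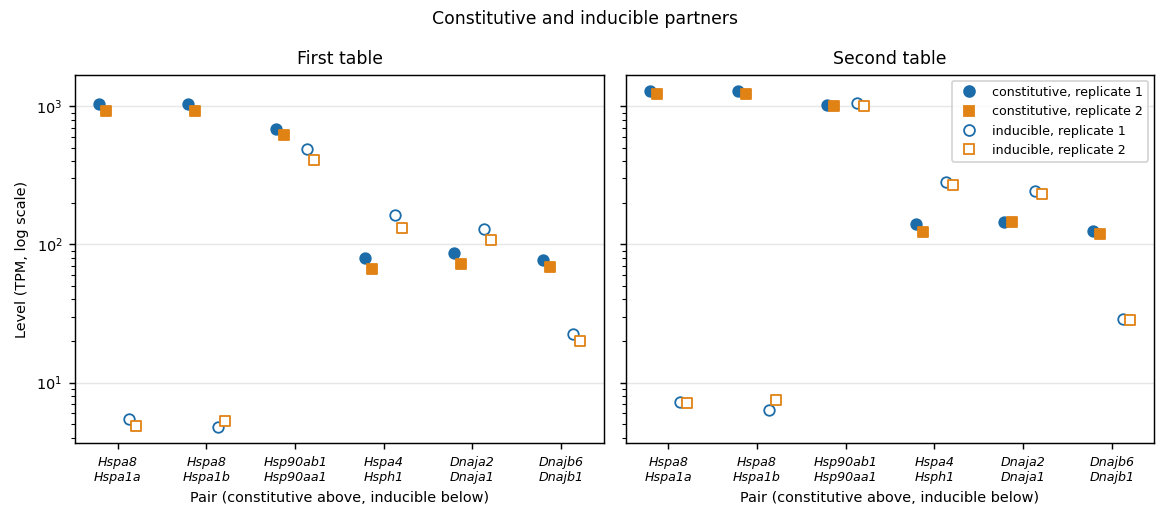
Level of the constitutive (filled) and inducible (open) gene of each pair in each mouse, in TPM on a log axis, from the first and the second quantification. The Hspa8 pairs differ by about 190 times in the first table; the Hsp90 pair is separated in the first table (ratio 1.46) and not in the second (ratio 0.986).

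All 10 heat-inducible members were expressed, from a mean of 5.02 TPM for Hspb1 to 446.8 TPM for Hsp90aa1. Their median was 31.8 ± 3.7 TPM, below the 86.7 ± 9.46 TPM of the 10 constitutive cytosolic members (SD of the medians of the 2 mice). The 7 ER-stress-inducible members had a median of 27.9 ± 3.26 TPM, and the 8 mitochondrial ones 29.9 ± 1.11 TPM. The genes below 10 TPM among the heat-inducible members were Hspa1a, Hspa1b and Hspb1. These 3 also carried the most uncertain read assignment of the list: the posterior SD of the count was 4.55% and 4.87% of it for Hspa1a, 5.53% and 4.75% for Hspa1b, and 6.82% and 5.1% for Hspb1. Of the 79 members, 55 shared no reads with another gene by this measure. For Hspa8 it was 0.423% and 0.38%. The 16 pseudogenes whose symbols name a member parent, none of them Hspa8, all had means of at most 0.57 TPM.

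Between the mice, no member with enough counts differed by 1.5-fold after scaling to library size. Ratios are log2 of replicate 2 over replicate 1 in CPM, the count scaled to library size, with a 95% Clopper-Pearson interval that covers counting error only. Of 65 members with a mean count of at least 100, 0 differed by 1.5-fold in either direction, where 1.16% of 12615 genes were higher and 1.93% lower in replicate 2. With spike-in scaling 8 members, and with deposited TPM 2 members, were at least 1.5-fold lower in replicate 2. The median of all genes moved with them, to -0.44 and -0.22. The share of all genes past 1.5-fold was not computed under either scaling, so these counts have no reference. At 2-fold with library-size scaling, 0 members differed, against 0.277% of genes higher and 0.436% lower. At 1.25-fold, a step added with the values in view, 2 members were higher (6.43% of all genes) and 3 lower (5.92% of all genes). These were Dnajc4 at 0.43 (0.13 to 0.74) and Hspa1b at 0.37 (0.13 to 0.61), and Dnajc21, a factor of ribosome assembly, at -0.43 (-0.61 to -0.25), Dnajc28 at -0.41 (-0.70 to -0.13) and Dnajc1 at -0.35 (-0.51 to -0.19). The median over the 65 members was 0.08, against 0.04 over all genes. With library-size scaling the members' shares past each fold were below those of all genes, and the counts are too small to call this a difference.

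**Figure D3:**
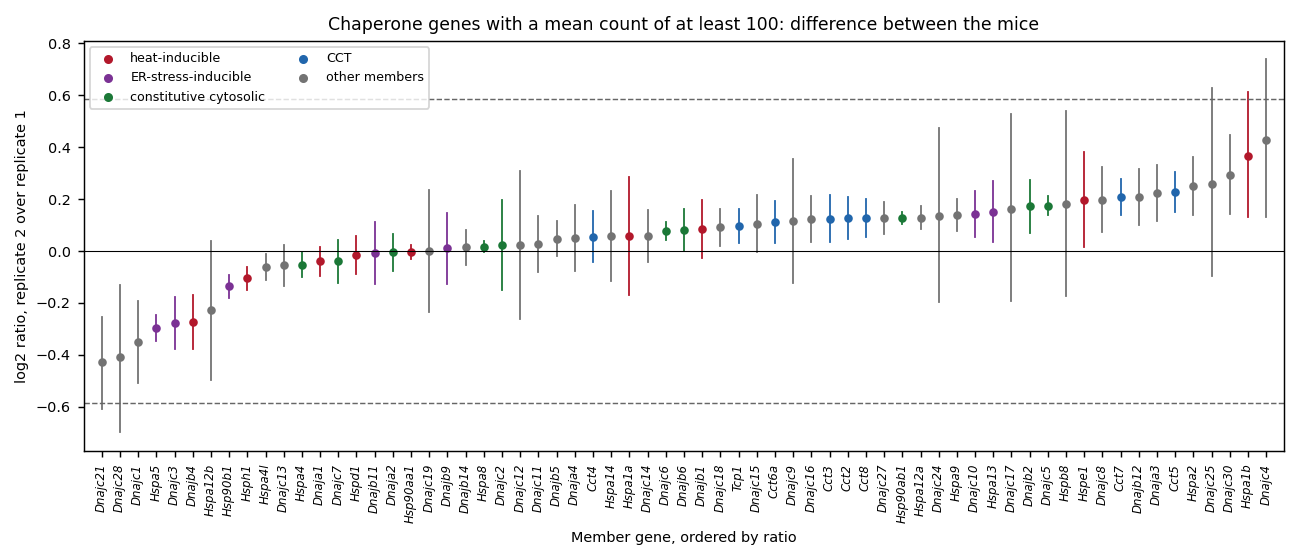
Log2 ratio of replicate 2 over replicate 1 for the 65 members with a mean count of at least 100, in order of the ratio; bars are 95% counting intervals and dashed lines mark 1.5-fold. All points lie between the dashed lines, from -0.43 for Dnajc21 to 0.43 for Dnajc4.

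Heat-inducible members lay on both sides of 0 between the mice. Of the 10 heat-inducible members, 5 were higher and 5 lower in replicate 2, with a median of 0.03, against 0.02 over all 18187 genes whose mean count reached 10. Hspa1b was higher, Dnajb4 lower at -0.27 (-0.38 to -0.17), and Hsp90aa1 at 0.00 (-0.03 to 0.02). Of the partners, Hspa8 lay at 0.02 (-0.01 to 0.04) and Hsp90ab1 at 0.13 (0.11 to 0.15). Hsf1, which encodes the heat shock factor, was lower in replicate 2 at -0.44 (-0.58 to -0.31), from 30.8 and 20.58 TPM. A further list in these libraries differed far more: 15 of 16 immediate early genes were higher in replicate 2, with a median of 1.38. Of all genes, 9740 of 18187 were higher. That list was drawn up with earlier results of these data known, so its count is no independent observation. The part of these genes in the chaperone values was not tested.

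The ER-stress-inducible members lay on both sides of 0. Hspa5 at -0.30 (-0.35 to -0.24), Dnajc3, a J-domain partner of BiP, at -0.28 (-0.38 to -0.18) and Hsp90b1 at -0.14 (-0.18 to -0.09) were lower in replicate 2, with intervals that exclude 0. Dnajb11 (ERdj3) lay at -0.01 and Dnajb9 (ERdj4) at 0.01, while Dnajc10, an ER disulfide reductase, lay at 0.14 (0.06 to 0.23) and Hspa13 at 0.15 (0.03 to 0.27). Hspa5, Dnajc3 and Hsp90b1 are also the genes whose printed windows hold the ER stress element. This was seen after the values were known and over 6 genes with a window. Any part of the element in these differences was not tested. Outside the members, 8 of 12 ER folding genes were lower in replicate 2, with a median of -0.08, against 8447 of 18187 genes. Among the 8 were Creld2 at -0.30 (-0.57 to -0.04) and Pdia4, a disulfide isomerase, at -0.26. Of the 9 ER folding genes with a window, 4 held the element: Calr at -0.07, Canx at 0.03 (-0.01 to 0.07), Creld2 and Pdia6 at -0.13.

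**Figure D4:**
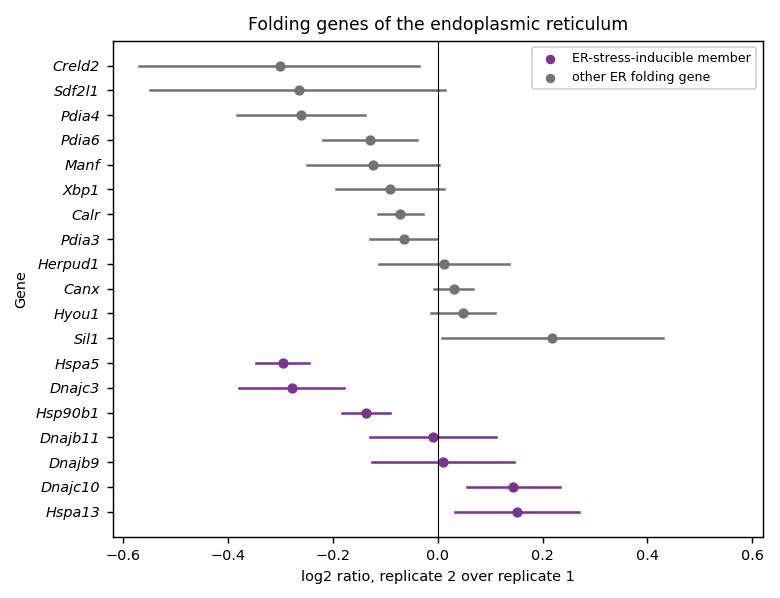
Log2 ratio of replicate 2 over replicate 1 for the 7 ER-stress-inducible members and 12 other ER folding genes, with 95% counting intervals. Hspa5, Dnajc3 and Hsp90b1 lie below 0 with intervals that exclude it, and Dnajc10 and Hspa13 above 0. The intervals do not cover differences between animals.

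CCT subunits were all on 1 side, where most genes also lay: 8 of 8 were higher in replicate 2, against 9740 of 18187 genes, from 0.06 for Cct4 to 0.23 for Cct5, with a median of 0.12. Prefoldin was likewise higher in 6 of 6 genes, with a median of 0.21, and 3 of 3 HSP110 genes were lower, with a median of -0.06. Relative to the median of all genes under each scaling, the CCT median stayed between 0.0983 and 0.141. The split was 8 above and 0 below, except with deposited TPM, where it was 7 and 1. For prefoldin it stayed between 0.133 and 0.22 with 6 of 6 above. HSP110 genes lay below it in 3 of 3, or 2 of 3 with deposited TPM. Scaling to library size or to spike-ins applies 1 factor per library, which subtracting the median of all genes removes. Only deposited TPM and the second quantification could therefore move these values by much, and sameness across the other scalings is no support. Without that reference the CCT and prefoldin medians turn below 0 with spike-in scaling and with deposited TPM, which put the median of all genes at -0.44 and -0.22. The HSP110 genes stay lower under both. The biological coefficient of variation between the mice was 12.3% over all genes.

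The gene levels hide several transcripts per gene. Of the 69 expressed members, 64 had more than 1 annotated transcript, and the same transcript led in both mice in 68. In 53 the leading transcript took at least 50% of the TPM of its gene in both. The exception was Hspb11, with counts of only 82 and 80, where Hspb11-201 took 70.1% in replicate 1 and 0% in replicate 2. Protein-coding transcripts made up 82.5% ± 0.0844 of the members' TPM, retained introns 8.3% ± 0.0209, and nonsense-mediated decay transcripts 2.8% ± 0.0586 (SD, n = 2). Over all nuclear protein-coding genes these shares were 84.8% ± 1.48, 7.35% ± 1.18 and 2.83% ± 0.0792. The second table reversed the order of the first 2 shares, with 85.4% protein-coding in members against 81.2% in all, and 5.62% retained introns against 8.68%. The leading transcript was not protein-coding in 4 members: Cct6a-202 and Dnajc15-203 and Dnajc24-202, annotated as processed transcripts, and Cct7-202, annotated for nonsense-mediated decay. GENCODE M21 types the whole gene Cct6a as a processed transcript, so it is missing from counts restricted to protein-coding genes.

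The 2 quantifications of the same reads gave close differences between mice and less close levels. The second table gave levels 1.65 times those of the first at the median over expressed members and 1.57 times over expressed protein-coding genes. Of the 20 highest members, 17 were among the 20 highest in both tables. Of 65 members, 60 kept the sign of their ratio between mice, and the largest shift was 0.094 on the log2 scale. Transcript shares were less stable, with the same leading transcript in both tables in 55 of 69 members. For Hspa8, Hspa8-202 (2019 bases) led the first table at 47.4% ± 1.82 and Hspa8-201 (2394 bases) the second at 81.7%. For Dnaja2, the coding Dnaja2-201 led the first at 60.8% and the retained-intron transcript Dnaja2-202 the second at 53.4%.

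**Figure D5:**
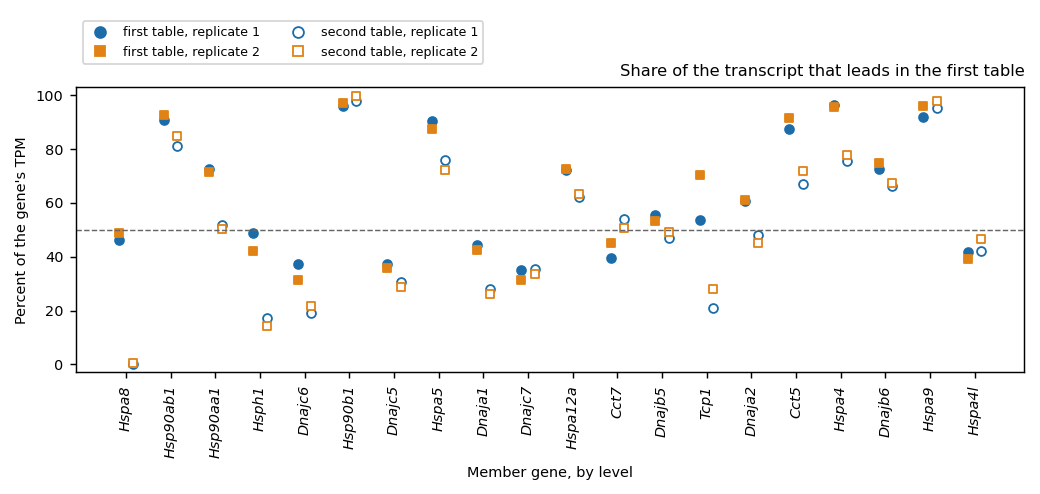
Share of the gene's TPM taken by the transcript that leads in the first table, for the 20 members of highest level, in the first table (filled) and the second (open) for each mouse; the dashed line marks 50%. For Hspa8 the leading transcript falls to near 0% in the second table, while for Hsp90b1 and Hspa9 it stays above 90% in both.

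The Hsp90 pair rests on this choice. In the second table Hsp90aa1 measured 1049 and 1009 TPM and Hsp90ab1 1020 and 1009 TPM, a ratio of 0.986 ± 0.0199 (SD, n = 2). There, the short transcript Hsp90aa1-207 of 481 bases took 48.3% of the TPM of Hsp90aa1 but 5.62% ± 0.165 of its estimated counts. In the first table it took 1% of the TPM. In estimated counts of the second table, which are not corrected for length, Hsp90ab1 was again higher, at 1.32 ± 0.0873 times Hsp90aa1, against 1.42 ± 0.0905 in expected counts of the first. The Hspa4 to Hsph1 ratio was 0.48 in the second table and 0.843 in expected counts, and Hsph1 stayed the higher of the 2 in each.

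Of the genes that work with the members, 16 of 16 cytosolic cochaperones were expressed, with means from 2.81 TPM for Bag3, an HSP70 nucleotide exchange factor, to 82.8 TPM for Bag1. Stip1 (HOP), which bridges HSP70 and HSP90, measured 82.93 and 72.7 TPM and the ubiquitin ligase Stub1 (CHIP) 74.06 and 76.27 TPM. Of the ER folding genes, 12 of 12 were expressed, and the lectin chaperones Calr and Canx had the highest means at 199 and 176 TPM. Of 6 further mitochondrial folding genes, 6 were expressed, led by Trap1, the mitochondrial HSP90, at 31.2 TPM. Of 4 heat shock factor genes, 3 were expressed: Hsf1 at 25.7 TPM, Hsf2 at 12 TPM and Hsf4 at 5.25 TPM.

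The libraries held 29417186 and 35188766 expected counts, of which spike-ins took 0.349% and 0.461%. All 5 cortex markers were expressed, as were all 7 neuronal markers. Red blood cell genes were lower in replicate 2 in 4 of 4, with a median log2 ratio of -0.67 and summed levels of 862 and 455 TPM. Choroid plexus genes were lower in 3 of 3 with enough counts, with a median of -1.39 and summed levels of 73.2 and 9.98 TPM. Endothelial markers were higher in replicate 2 in 2 of 4, with a median of -0.05 and sums of 53.7 and 43.8 TPM. Mural markers were higher in 4 of 5, with a median of 0.11, though their sums were 46.3 and 37.8 TPM. All sums are in deposited TPM, which put the median log2 ratio of all genes at -0.22. Oligodendrocyte markers were lower in replicate 2 in 3 of 4, with a median of -0.17 and sums of 1868 and 1385 TPM, and astrocyte markers higher in 4 of 5, with a median of 0.13. The part of these cells in the levels or differences of the members, the lower ER genes included, was not tested.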

How the data were processed

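Samples were grouped by the labels: 2 replicates of 1 group, so p-values and tests of groups were not possible. Reads were quantified against mm10, per the labels, and the annotation was GENCODE M21, as a note deposited with the tables states. No source used here names the aligner, any version or the strand setting of the counting. The reference is of C57BL/6J, and loss of CAST/EiJ reads was not tested. The authors deposited a gene table of expected counts and TPM, and a first transcript table that adds the percent of its gene's TPM each transcript takes and the posterior SD of its count; the column names are those RSEM writes. A second transcript table holds estimated counts and TPM, per the file headers, under column names kallisto writes; it was summed per gene.

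Expected counts were rounded, scaled with TMM library sizes (edgeR 4.0.16, R 4.3.3) and turned into log2 ratios with a prior count of 2. Levels are TPM as deposited. The members shared no reads where the posterior SD was 0 in both libraries. On simulated data, with less variation between libraries than these mice showed (dispersion 0.01), 50 of 99 genes changed by 1.5-fold passed a 1.5-fold rule. So did 96 of 100 changed by 2-fold and 153 of 12437 left unchanged. Members, lists, pairs and motifs were chosen with earlier results of these data known. Any member could be named within its class; full values are for the 20 highest members, members of the lists and pairs and members past a fold rule, and Hspa12b, Hspa2, Dnajc28, Dnajc25, Dnajc22, Dnajc4, Dnajc21 and Dnajc1 were added after their values were seen; other genes come from the lists, except Cryab. Rows named by number (26248) were left out. Intervals cover counting error only, since reads carry no molecular identifiers here. The labels name a different animal per library under 1 shared donor record.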

Additional observations from a re-analysis of the deposited data

How the results depend on the processing

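With 2 mice in 1 group no result has a test, and the depth of each library limits the ratios of members with few counts, such as the small heat shock genes. Of 96 alternative values, 65 stayed within the spread between the mice or 1.5 times a count. Part of that count was fixed in advance, so it is no measure of stability. With 2 mice, a pair ratio with 1 mouse left out always lies within the SD. All 6 values for small heat shock members stayed inside a wide interval, -0.69 to 0.54. The members' median level of 25.26 TPM ranged from 22.72 to 25.19 TPM with either mouse left out, and was 41.02 TPM in the second table and 57.12 TPM rescaled over nuclear protein-coding genes. In the second table the pair ratios were 175 for Hspa8 over Hspa1a, 0.986 for Hsp90ab1 over Hsp90aa1, 0.48 for Hspa4 over Hsph1, 0.609 for Dnaja2 over Dnaja1 and 4.29 for Dnajb6 over Dnajb1. In expected counts, with no length correction, they were 111 for Hspa8 over Hspa1a, 122 for Hspa8 over Hspa1b, 0.843 for Hspa4 over Hsph1, 0.658 for Dnaja2 over Dnaja1 and 1.87 for Dnajb6 over Dnajb1. With 1 added to each TPM they were 159 and 164 for Hspa8 over Hspa1a and Hspa1b, 0.673 for Dnaja2 over Dnaja1 and 3.32 for Dnajb6 over Dnajb1.

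Spike-in scaling moved the median log2 ratio of all genes from 0.02 to -0.44, and deposited TPM moved it to -0.22. Under these scalings 8 and 2 members were at least 1.5-fold apart, all lower in replicate 2. With spike-ins these were Dnajc1, Hspa5, Hspa12b, Dnajb4, Hsp90b1, Dnajc3, Dnajc21 and Dnajc28, and with TPM Dnajc21 and Dnajc28. The share of all genes past 1.5-fold was not computed for either scaling. The list medians moved with all genes, to -0.39 and -0.17 for all members, -0.44 and -0.20 for heat-inducible, -0.47 and -0.25 for ER-stress-inducible, -0.42 and -0.17 for constitutive cytosolic, -0.34 and -0.11 for CCT and -0.34 and -0.047 for mitochondrial members. No paired analysis was possible because both replicates belong to 1 group.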
